A study of Mus musculus with 32 samples.

Results

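The response of epididymal white adipose tissue (eWAT) to corticosterone (cort) was measured in male C57BL/6 mice (C57BL/6J in the study's methods) kept on the normal-protein diet (NPD). The members of the comparison were the 8 eWAT libraries that the labels place on the NPD, 4 given cort (Cort NPD) and 4 given vehicle (Veh NPD), out of 32 libraries in the series. The rest of the series holds liver and a high-protein diet (HPD). All 8 mice ate a purified diet with 20% of its energy from whey protein. From 10 weeks of age they drank either cort dissolved through ethanol or the same dilute ethanol alone, for 7 days. Each replicate is a separate numbered library of a group, with no animal number in the labels, so the p-values measure the spread between libraries. That spread was estimated from the eWAT libraries of both diets together, and not from the NPD libraries alone. Whole tissue was used, so that adipocytes, immune cells, vessels, fibroblasts and mesothelium all contribute to each value. Cort through drinking water reaches all organs, so effects on the fat itself cannot be told apart from effects through other organs.

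Corticosterone is the main glucocorticoid of mice. It binds the glucocorticoid receptor (Nr3c1), which moves to the nucleus, binds DNA and raises the transcription of some genes, while it damps the transcription driven by NF-kB, AP-1 and interferon pathways. In fat, glucocorticoids are known for promoting adipocyte differentiation and lipid turnover, for opposing insulin, and for quieting resident macrophages and lymphocytes.

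RNA was read from transcript 3′ ends (QuantSeq), so the count of a gene does not grow with its length, and levels are given as CPM, counts scaled to a common library size. Total counts ranged from 11690560 to 16468871 over the 8 libraries. The defining adipocyte markers were abundant in all of them: Plin1, which coats the lipid droplet, ranged from 1175 to 1451 CPM and Fabp4, a fatty acid carrier, from 14427 to 21124 CPM. Among markers of other tissues, the summed level of 17 epididymis and testis genes reached at most 6.24 CPM on the NPD. The sum of 12 skeletal muscle genes was 150.0 to 264 CPM in Veh and 74.6 to 104.5 CPM in Cort, without overlap, and that of 12 hepatocyte genes was 918 to 2158 CPM in Veh and 2084 to 3996 CPM in Cort, with overlap. Without Cyp2e1, the most abundant of the hepatocyte genes, that sum was 51.7 to 75.1 CPM in Veh and 58.1 to 79.5 CPM in Cort. The sum of 9 red blood cell genes overlapped (3903 to 7149 against 3635 to 6508 CPM). The part of muscle or hepatocyte transcripts in the results was not tested.

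Cort raised 615 genes and lowered 597 of the 15187 genes tested with edgeR's quasi-likelihood test at an adjusted p under 0.05, which is 7.98% of them (4.05% higher, 3.93% lower). The called genes that fell were less abundant and moved further. Their median log2 fold change was -1.02, against 0.71 for those that rose, at median levels of 22.7 and 63.9 CPM. These medians are over called genes only, and at low counts a larger change is needed for a call. Changes over 2-fold were found for 169 higher and 312 lower genes, and over 4-fold for 38 and 96. The libraries of the groups did not overlap for 1096 of the 1212 called genes, where 14.9% of all tested genes did not overlap. Scaling by library totals alone, without TMM factors, gave 435 higher and 769 lower genes, with a median over all genes of -0.11 in place of -0.02, so small changes in either direction depend on the scaling. With each library left out in turn, 872 to 1038 genes were called, and 627 were called in all 8 of these fits.

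**Figure D1:**
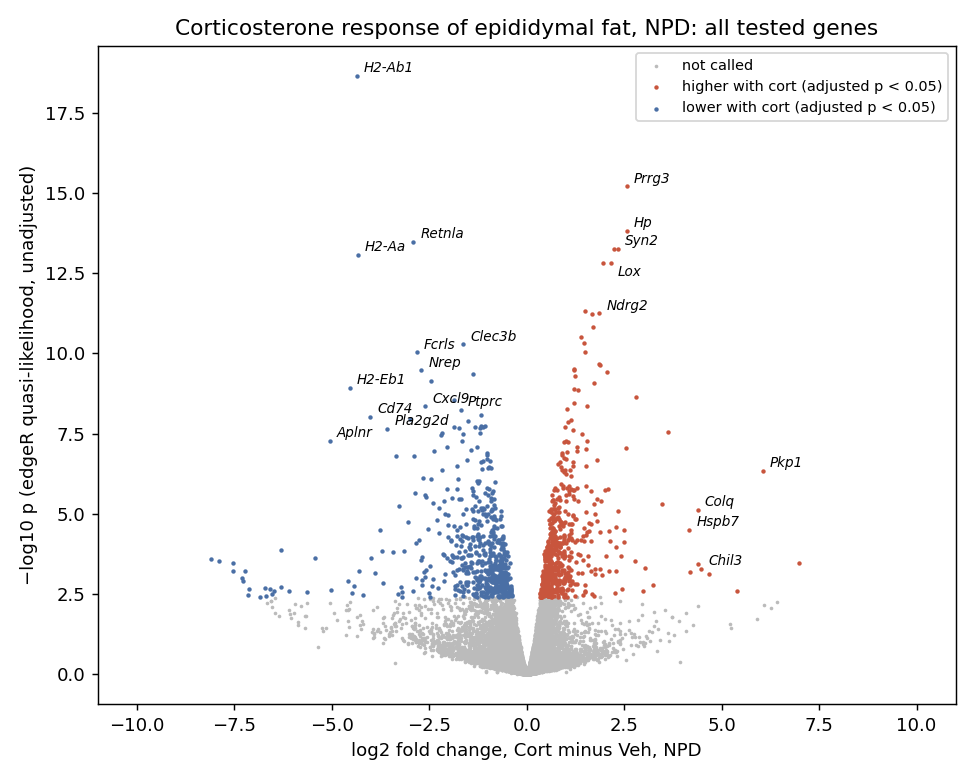
Each point is 1 of the 15187 tested genes in eWAT on the NPD, with the log2 fold change of cort against vehicle on the x axis and the −log10 of the unadjusted edgeR p on the y axis. The 615 genes called higher (red) and 597 called lower (blue) are set off from grey genes that were not called, and H2-Ab1 stands highest of all.

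The genes named first were chosen by smallest p or largest change among called genes whose groups did not overlap, so that their separation is a description. After the levels, parentheses give the log2 fold change of cort against vehicle ± SE and the adjusted p of edgeR. The firmest rise was that of Prrg3, a membrane protein with a Gla domain. Prrg3 was 61.3, 77.3, 68.96 and 86.8 CPM in the Veh libraries and 369, 494, 439 and 443 CPM in the Cort libraries. It rose 5.93-fold (log2 fold change 2.57 ± 0.15 (SE), adjusted p = 4.7e-12). Hp encodes haptoglobin, which binds free haemoglobin, and it was among the most abundant of the genes that rose. It was 1177, 861, 1008 and 1289.6 CPM in the Veh libraries and 5815, 7629, 6829 and 5407 CPM in the Cort libraries (2.57 ± 0.17, adjusted p = 7.6e-11). All 4 Cort libraries were high and all 4 Veh libraries low, with a wide gap between them.

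Prdx6, a peroxidase that reduces phospholipid hydroperoxides, was 454, 469, 396 and 520.0 CPM in the Veh libraries and 1991, 2511, 2054 and 2113 CPM in the Cort libraries (2.24 ± 0.16, adjusted p = 1.4e-10). Lox, the enzyme that cross-links collagen and elastin, was 53.4, 53.5, 60.96 and 58.1 CPM in the Veh libraries and 210.3, 329, 226 and 239 CPM in the Cort libraries (2.15 ± 0.16, adjusted p = 2.6e-10). Prdx6 rose 4.72-fold and Lox 4.44-fold, and the Veh libraries of each lay close together. Ndrg2, a cytoplasmic protein of the NDRG family, was 148, 132, 184 and 207 CPM in the Veh libraries and 588, 653, 644 and 559.6 CPM in the Cort libraries (1.87 ± 0.16, adjusted p = 7.3e-09). Mylk, the myosin light chain kinase of smooth muscle and stromal cells, was 391, 288, 327 and 439.8 CPM in the Veh libraries and 1181, 1053, 1457 and 988 CPM in the Cort libraries (1.69 ± 0.15, adjusted p = 1.7e-08). Neither gene had a Veh library within reach of the Cort range.

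Fhl1, a LIM domain protein of muscle, was 114, 154, 163 and 164 CPM in the Veh libraries and 637, 575, 616 and 496 CPM in the Cort libraries (1.96 ± 0.14, adjusted p = 2.6e-10). Hspb7, a small heat shock protein best known from heart and skeletal muscle, was 4.39, 4.69, 5.85 and 24.5 CPM in the Veh libraries and 146, 249, 136 and 178 CPM in the Cort libraries (4.17 ± 0.65, adjusted p = 0.0017). The groups did not overlap for either gene, although Veh replicate 4 stood above the other Veh libraries for Hspb7. Both muscle-associated genes were higher in the group whose summed skeletal muscle genes were lower: Acta1, skeletal muscle actin, was 112, 197, 50.2 and 60.6 CPM in the Veh libraries and 22.95, 14.1, 21.1 and 8.99 CPM in the Cort libraries (-2.64 ± 0.58, adjusted p = 0.014).

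Syn2 encodes a synapsin, a protein of synaptic vesicles, and was 9.88, 12.7, 9.95 and 11.6 CPM in the Veh libraries and 53.1, 49.2, 63.3 and 57.97 CPM in the Cort libraries (2.34 ± 0.16, adjusted p = 1.4e-10). The gene lies on the other strand of the same stretch of chromosome 6 as Timp4, an inhibitor of matrix metalloproteases, which was far more abundant, with 76178 counts over the eWAT libraries against 3560. Timp4 itself was at 286 to 489.9 CPM in Veh and 955 to 1137 CPM in Cort (1.49 ± 0.14, adjusted p = 7.8e-08). Whether the counting used strand is not given in the sources used here, so reads of the pair may not be told apart. The same holds for the neighbours Tmem176a and Tmem176b, membrane proteins of antigen-presenting cells, which rose 3.19-fold and 2.82-fold (1.67 ± 0.14, adjusted p = 7.3e-09 and 1.49 ± 0.13, adjusted p = 7.3e-09). It also holds for Dctn3, a dynactin subunit (1.48 ± 0.14, adjusted p = 4.9e-08), which overlaps Il11ra1.

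Other genes rose from very low levels. Pkp1, a desmosome protein, was 0, 0, 0 and 0.551 CPM in the Veh libraries and 8.15, 12.7, 5.92 and 11.8 CPM in the Cort libraries (adjusted p = 6.7e-05). Chil3, a chitinase-like protein that macrophages secrete, was 1.36, 0, 2.02 and 0.276 CPM in the Veh libraries and 13.2, 15.6, 8.52 and 46.3 CPM in the Cort libraries (adjusted p = 0.012). These genes and Map7d2, a microtubule-binding protein (at most 1.55 CPM in Veh and at least 7.54 CPM in Cort, adjusted p = 0.0094), had Veh libraries at 0, so that the size of their change is not well fixed. Colq, which anchors acetylcholinesterase, was 0.309, 0.223, 0.336 and 0.827 CPM in the Veh libraries and 8.69, 4.43, 8.52 and 14.5 CPM in the Cort libraries (4.39 ± 0.79, adjusted p = 5.8e-04).

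The firmest change in either direction was in H2-Ab1, the beta chain of the MHC class II molecule I-A, which presents peptides to CD4+ T cells. H2-Ab1 was 406, 377, 346 and 347 CPM in the Veh libraries and 15.8, 21.8, 15.9 and 18.5 CPM in the Cort libraries. The levels within each group were close and the fall was 20.5-fold (log2 fold change -4.36 ± 0.18, adjusted p = 3.4e-15). In whole tissue, fewer cells of a type and less RNA per cell cannot be told apart. Its partner chain H2-Aa was 552, 553, 439.6 and 464 CPM in the Veh libraries and 26.1, 26.7, 15.2 and 31.4 CPM in the Cort libraries (-4.34 ± 0.23, adjusted p = 1.8e-10). H2-Eb1, the beta chain of the class II molecule I-E, was 465, 413, 446 and 398 CPM in the Veh libraries and 15.9, 21.7, 14.2 and 22.5 CPM in the Cort libraries (-4.54 ± 0.32, adjusted p = 6.1e-07). Cd74, the invariant chain that guards the class II groove until peptide loading, was 369, 272, 306 and 299.7 CPM in the Veh libraries and 16.8, 22.97, 12.1 and 25.02 CPM in the Cort libraries (-4.02 ± 0.33, adjusted p = 3.5e-06). For all 4 of these genes the highest Cort library was far below the lowest Veh library.

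Retnla, secreted by alternatively activated macrophages, was 1298, 1431, 1079 and 1444 CPM in the Veh libraries and 196, 186, 108 and 208 CPM in the Cort libraries (-2.91 ± 0.18, adjusted p = 1.3e-10). Fcrls, a scavenger receptor of tissue macrophages, was 40.02, 32.2, 34.3 and 39.3 CPM in the Veh libraries and 8.69, 4.07, 2.13 and 5.70 CPM in the Cort libraries (-2.82 ± 0.27, adjusted p = 7.8e-08). Ptprc, the pan-leukocyte phosphatase CD45, was 55.2, 46.2, 64.9 and 49.8 CPM in the Veh libraries and 11.3, 14.2, 19.4 and 22.2 CPM in the Cort libraries (-1.69 ± 0.20, adjusted p = 2.2e-06). The groups stood apart for the 3 genes, Retnla and Fcrls by about the same factor (7.52-fold and 7.05-fold) and Ptprc by less (3.23-fold). Cxcl9, a chemokine induced by interferon gamma, was 86.7, 85.3, 66.5 and 32.9 CPM in the Veh libraries and 11.5, 9.45, 13.1 and 10.7 CPM in the Cort libraries (-2.60 ± 0.26, adjusted p = 1.9e-06). Veh replicate 4 was the lowest Veh library for Cxcl9 and still above all Cort libraries. Pla2g2d, a secreted phospholipase of lymphoid tissue and antigen-presenting cells, was 21.00, 20.1, 20.8 and 13.3 CPM in the Veh libraries and 1.15, 2.98, 0.237 and 1.87 CPM in the Cort libraries (-3.58 ± 0.43, adjusted p = 6.4e-06).

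Among the non-immune genes that fell, Clec3b, the plasminogen-binding protein tetranectin, was 77.3, 79.8, 65.7 and 73.5 CPM in the Veh libraries and 27.98, 20.5, 22.4 and 24.8 CPM in the Cort libraries (-1.63 ± 0.15, adjusted p = 5.0e-08). Ltbp4, which stores latent TGF-beta in elastic matrix, was 107, 108, 157 and 112 CPM in the Veh libraries and 46.7, 41.1, 49.1 and 48.8 CPM in the Cort libraries (-1.38 ± 0.15, adjusted p = 2.7e-07). Both had Cort libraries below all Veh libraries, and Veh replicate 3 stood above the rest for Ltbp4. Nrep, a small cytoplasmic protein of wound fibroblasts and neurons, was at 28.4 to 43.02 CPM in Veh and 3.63 to 6.59 CPM in Cort (-2.71 ± 0.28, adjusted p = 2.2e-07). Aplnr, the apelin receptor of endothelium, was 5.06, 2.53, 11.8 and 6.61 CPM in the Veh libraries and 0.272, 0.218, 0.158 and 0.0890 CPM in the Cort libraries (-5.05 ± 0.68, adjusted p = 1.3e-05). Its Cort libraries were all near 0.

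**Figure D2:**
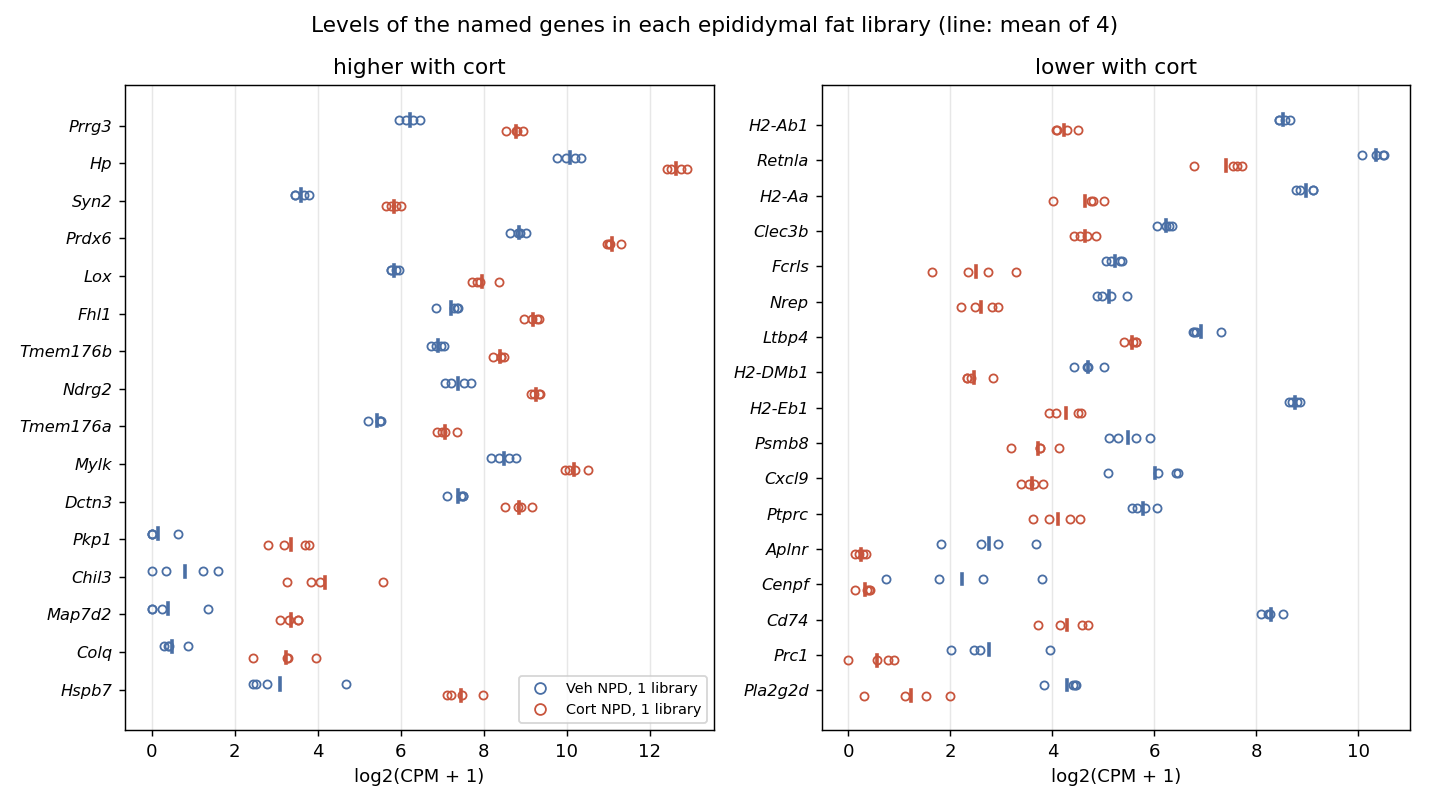
Levels as log2(CPM + 1) of 33 genes chosen by smallest p or largest change, with 1 open circle per library (blue, Veh NPD; red, Cort NPD) and a bar at the mean of 4. No overlap of the groups is seen, as the choice required, and several of the lower rows hold genes that were near 0 in 1 group.

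The receptor and its classical targets were read next, to ask how the tissue's own response to the hormone looked. Nr3c1 was 118, 131, 155 and 121 CPM in the Veh libraries and 105, 114, 96.8 and 114 CPM in the Cort libraries (-0.29 ± 0.13, adjusted p = 0.19), so its change was not called. Fkbp5, a chaperone of the receptor that it induces, was 59.3, 70.7, 37.2 and 62.8 CPM in the Veh libraries and 192, 185, 224 and 168 CPM in the Cort libraries. The Cort libraries were all high and Veh replicate 3 was the lowest of all 8 (1.74 ± 0.39, adjusted p = 0.016), a call that was lost without Veh replicate 3 (log2 fold change 1.58, adjusted p = 0.055). Hsd11b1, the reductase that regenerates active glucocorticoid inside fat cells, was 166, 195, 136 and 152 CPM in the Veh libraries and 441, 559.9, 442 and 485 CPM in the Cort libraries (1.57 ± 0.33, adjusted p = 0.01). It rose 2.97-fold with no overlap, and was the 1 called gene of 15 tested for receptors, chaperones and local steroid metabolism (background 7.98%).

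Of 19 tested classical targets of the receptor, 4 rose and none fell (21.1% called against 7.98% of all genes). The median log2 fold change over the 19 was 0.061 (-0.033 with library totals alone), against -0.024 over all genes. Besides Fkbp5 the 4 were Mt1 and Mt2, the metal-binding metallothioneins, and Sult1a1, a sulfotransferase (1.47 ± 0.25, adjusted p = 0.0015). Mt1 was 786, 990.0, 349 and 881 CPM in the Veh libraries and 3721, 3632, 4608 and 3245 CPM in the Cort libraries (2.34 ± 0.33, adjusted p = 6.1e-04). Mt2 moved with it, at 194 to 646 CPM in Veh and 2199 to 3249.6 CPM in Cort (2.49 ± 0.43, adjusted p = 0.0031). All Cort libraries were far above all Veh libraries for both. Most of the list was not called. At an unadjusted edgeR p under 0.05, in either direction, there were 12 of the 19, beside 3083 of all 15187 genes. Tsc22d3, the anti-inflammatory protein GILZ, had a log2 fold change of 0.81 ± 0.33 (adjusted p = 0.18), Per1, a clock gene, 0.049 ± 0.36 (0.97), Zbtb16, a transcription factor, -0.024 ± 0.33 (0.98), and Sgk1, a kinase, -0.82 ± 0.25 (0.054). The count of 4 became 7 with DESeq2, 9 with limma voom and quality weights, and 10 with the fit of the NPD groups alone.

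The core of a glucocorticoid receptor site, GNACA and TGTNC with any 3 bases between them, was sought on both strands in the 250 bases before RefSeq gene starts (GRCm38.p6), and 10934 tested genes had such a window. It was in 39 of these windows (0.357%), in 4 of 475 for genes called higher (0.842%) and in 2 of 452 for genes called lower (0.442%). The fuller form, AGAACA and TGTTCT with any 3 bases between them, was in 1 window, of no called gene. The windows of the called higher genes were those of Mt1, Serpina3n, Folh1 and Map3k6. Stretches of 100 bases are shown for Mt1 and Serpina3n, a serine protease inhibitor, because both genes rose firmly. The match is in capitals. Mt1 is at chr8:94178951-94179050, plus strand, and Serpina3n at chr12:104406586-104406685, plus strand.
Mt1: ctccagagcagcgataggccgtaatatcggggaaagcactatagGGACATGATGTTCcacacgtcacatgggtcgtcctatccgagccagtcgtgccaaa
Serpina3n: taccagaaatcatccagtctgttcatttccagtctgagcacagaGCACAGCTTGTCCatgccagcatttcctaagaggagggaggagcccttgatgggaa
A match describes the letters and is no evidence that the receptor binds there.

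Some genes of lipid metabolism rose. Of 24 tested genes of cholesterol synthesis and uptake 10 rose and none fell (41.7% called against 7.98% of all genes). Their median log2 fold change was 0.57. Hmgcs1, which makes the first committed intermediate, was at 137 to 232 CPM in Veh and 320.5 to 366 CPM in Cort (0.86 ± 0.20, adjusted p = 0.0091), and Ebp, a sterol isomerase, at 51.7 to 67.6 CPM in Veh and 84.9 to 100.1 CPM in Cort (0.64 ± 0.14, adjusted p = 0.0036). The count is not firm. It was 6 without Veh replicate 1, 5 without Veh replicate 2, and 4 without Veh replicate 3, Cort replicate 1 or Cort replicate 4. Hmgcs1 and Ebp were called in all 8 of the fits that left out a library.

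Fatty acid and triacylglycerol synthesis had 6 higher and 1 lower gene of 26 tested (26.9% called, all genes 7.98%), with a median of 0.54. The carbohydrate-responsive factor ChREBP (Mlxipl) was at 22.8 to 35.1 CPM in Veh and 54.8 to 67.05 CPM in Cort (1.09 ± 0.18, adjusted p = 1.7e-04), the fatty acid activating enzyme Acsl1 at 824 to 905 CPM in Veh and 1302 to 1668 CPM in Cort (0.83 ± 0.17, adjusted p = 0.0032), and the acyltransferase Agpat2 at 373 to 570.0 CPM in Veh and 705 to 909 CPM in Cort (0.79 ± 0.18, adjusted p = 0.0087). These 3 were called whichever library was left out, while the count of 7 was 4 without Veh replicate 2. The central enzymes of fatty acid synthesis were not called: the log2 fold change was 0.59 ± 0.37 for Fasn (adjusted p = 0.42), 0.61 ± 0.30 for Acaca (0.27) and -0.0023 ± 0.25 for Scd1 (1).

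Genes of lipolysis and the lipid droplet had 6 higher and 1 lower of 17 (41.2% called, all genes 7.98%), with a median of 0.38. G0s2, the inhibitor of adipose triglyceride lipase, was 204, 293, 434 and 315 CPM in the Veh libraries and 706, 881, 725 and 749 CPM in the Cort libraries (1.30 ± 0.17, adjusted p = 2.3e-05). Bscl2, seipin of the droplet junction, was at 303 to 389 CPM in Veh and 505 to 602 CPM in Cort (0.73 ± 0.15, adjusted p = 0.0017), and Abhd5, the activator of that same lipase, at 129 to 159.9 CPM in Veh and 178 to 236 CPM in Cort (0.52 ± 0.12, adjusted p = 0.0051). An inhibitor and an activator of 1 lipase thus both rose. The lipase itself, Pnpla2, had a log2 fold change of 0.36 ± 0.15 (adjusted p = 0.15). Aqp7, the channel through which glycerol leaves the fat cell, was 144.7, 100.3, 133 and 114 CPM in the Veh libraries and 66.6, 82.00, 70.1 and 62.5 CPM in the Cort libraries (-0.81 ± 0.13, adjusted p = 1.4e-04). It was the 1 gene of the list that fell, with all Cort libraries below all Veh libraries. The count of 7 was 4 without Veh replicate 3 or Veh replicate 4.

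The adrenergic and antilipolytic genes split, with 2 higher and 2 lower of 17 (23.5% called, all genes 7.98%). Adora1, the adenosine receptor that restrains lipolysis, was 55.4, 53.6, 51.4 and 51.9 CPM in the Veh libraries and 164, 128, 174 and 147 CPM in the Cort libraries (1.53 ± 0.22, adjusted p = 1.7e-04). Prkar2b, the main regulatory subunit of protein kinase A in fat, was at 819.9 to 1094 CPM in Veh and 1628 to 1856 CPM in Cort (0.90 ± 0.13, adjusted p = 2.5e-05). Hcar1, the lactate receptor, was 89.00, 97.3, 109 and 38.4 CPM in the Veh libraries and 23.1, 8.94, 11.2 and 8.55 CPM in the Cort libraries (-2.68 ± 0.52, adjusted p = 0.0066), and its relative Hcar2, a receptor for ketone bodies, was at 10.1 to 24.3 CPM in Veh and 4.94 to 9.03 CPM in Cort (-1.43 ± 0.35, adjusted p = 0.012). Receptors that all restrain lipolysis therefore moved in opposite directions. For the beta-adrenergic receptor Adrb3 the log2 fold change was -0.44 ± 0.16 (adjusted p = 0.087).

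Of 27 tested genes of glucose uptake, glycolysis and pyruvate use 9 rose and 1 fell (37.0% called, all genes 7.98%). The median was 0.39. Slc2a4, the insulin-responsive transporter GLUT4, was 80.1, 60.5, 74.7 and 86.3 CPM in the Veh libraries and 169, 141, 151 and 202 CPM in the Cort libraries (1.14 ± 0.20, adjusted p = 0.0012). Aldoa, an aldolase, was 904, 829, 769.7 and 897 CPM in the Veh libraries and 1773, 1524, 1471 and 1759 CPM in the Cort libraries (0.94 ± 0.15, adjusted p = 2.0e-04). Neither gene had overlapping groups, and they rose 2.20-fold and 1.92-fold. Hk2, the insulin-responsive hexokinase, was at 79.1 to 96.4 CPM in Veh and 153 to 189 CPM in Cort (0.87 ± 0.13, adjusted p = 5.3e-05). Pfkl, a subunit of phosphofructokinase, was at 55.3 to 65.5 CPM in Veh and 95.99 to 114 CPM in Cort (0.82 ± 0.15, adjusted p = 6.5e-04), and Pfkfb3, which makes its activator, at 208 to 343 CPM in Veh and 445 to 688 CPM in Cort (1.03 ± 0.16, adjusted p = 2.0e-04). These 5 genes were called whichever library was left out. The count of 10 was 6 without Cort replicate 1. In the insulin pathway 2 of 22 rose and 1 fell, among them Irs3, an insulin receptor substrate of rodent fat cells (10.5 to 22.7 CPM in Veh and 35.97 to 46.8 CPM in Cort, 1.31 ± 0.22, adjusted p = 3.5e-04). The insulin receptor Insr (0.28 ± 0.13, adjusted p = 0.22) and the kinase Akt2 (-0.012 ± 0.12, 0.98) were not called. That count of 3 (13.6% called against 7.98% of all genes) was 1 without Veh replicate 4, Cort replicate 1 or Cort replicate 3.

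Fatty acid oxidation had 4 higher genes of 23 (17.4% called, all genes 7.98%) with a median of 0.042 (-0.047 with library totals alone). Among the 4 were the medium-chain dehydrogenase Acadm (283 to 346 CPM in Veh and 470.5 to 537 CPM in Cort, 0.65 ± 0.12, adjusted p = 0.0012) and the thiolase Acaa2 (143 to 168 CPM in Veh and 206 to 296 CPM in Cort, 0.71 ± 0.13, adjusted p = 7.1e-04). Amino acid breakdown and serine synthesis had 6 higher of 33 (18.2% called), with a median of 0.28. Pcca, a subunit of propionyl-CoA carboxylase (70.3 to 81.00 CPM in Veh and 95.5 to 129 CPM in Cort, 0.61 ± 0.15, adjusted p = 0.0095), was the 1 called member that stayed called whichever library was left out. The count of 6 was 2 without Veh replicate 3 and 3 without Cort replicate 1, Cort replicate 2 or Cort replicate 3. Of 7 tested brown and beige adipocyte genes 2 fell (28.6% called). Prdm16, a factor that drives the beige programme, was 6.18, 6.40, 12.3 and 6.96 CPM in the Veh libraries and 1.97, 2.83, 1.89 and 3.47 CPM in the Cort libraries (-1.65 ± 0.34, adjusted p = 0.0022). All Cort libraries were below all Veh libraries, and Veh replicate 3 stood above the other Veh libraries. Cox8b, a muscle and brown fat subunit of cytochrome oxidase, was the other (18.3 to 27.99 CPM in Veh and 5.82 to 10.4 CPM in Cort, -1.33 ± 0.34, adjusted p = 0.018), and its call was lost without Veh replicate 2 (adjusted p = 0.053) or Cort replicate 2 (adjusted p = 0.064). Ucp1 had too few counts for a test, 26 over the Veh libraries and 0 over the Cort libraries.

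Signals that fat sends to other tissues changed in both directions. Of 17 tested adipokines and hormones 3 rose and 3 fell (35.3% called, all genes 7.98%). Agt, angiotensinogen, was 305, 312, 195 and 238 CPM in the Veh libraries and 855, 1009.7, 1366 and 717 CPM in the Cort libraries (1.91 ± 0.27, adjusted p = 3.6e-04). Lep, leptin, was 444, 604, 778 and 1469.5 CPM in the Veh libraries and 1801, 2847, 1624 and 2963 CPM in the Cort libraries (1.49 ± 0.37, adjusted p = 0.027). The Veh libraries of Lep were widely spread, and its call was lost when any of Veh replicates 1, 2 or 3 or Cort replicates 2 or 4 was left out (adjusted p from 0.064 to 0.082). Adipoq, adiponectin, was 8409, 6695, 5402 and 6074 CPM in the Veh libraries and 4959, 4703, 4457 and 3678 CPM in the Cort libraries (-0.58 ± 0.14, adjusted p = 0.011). The highest Cort library was below the lowest Veh library, and the call was lost without Veh replicate 1 (adjusted p = 0.062) or Cort replicate 4 (adjusted p = 0.0502). Cfd, adipsin, which starts the alternative complement pathway, was 11892, 9595, 4384 and 5015 CPM in the Veh libraries and 2901, 1846, 3636 and 1645 CPM in the Cort libraries (-1.62 ± 0.36, adjusted p = 0.013). The count of 6 was 2 without Veh replicate 1 and 3 without Cort replicate 2.

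Insulin-like growth factors fell while some of their carriers rose, with 2 higher and 3 lower of 13 (38.5% called, all genes 7.98%). Igf1 was 449, 485, 413 and 316 CPM in the Veh libraries and 173, 110.0, 181 and 125 CPM in the Cort libraries (-1.50 ± 0.18, adjusted p = 4.6e-06). It fell 2.83-fold, well beyond the spread of either group. Igf2, a second growth factor of the family, was at 14.5 to 22.05 CPM in Veh and 5.23 to 10.3 CPM in Cort (-1.37 ± 0.26, adjusted p = 9.3e-04). Among the binding proteins, Igfbp3 was at 6.73 to 14.96 CPM in Veh and 27.9 to 41.2 CPM in Cort (1.64 ± 0.26, adjusted p = 2.1e-04) and Igfbp4 at 944 to 1080.3 CPM in Veh and 1490.4 to 1784 CPM in Cort (0.64 ± 0.11, adjusted p = 2.6e-04), both higher, and Igfbp7 at 319.7 to 425 CPM in Veh and 218 to 244 CPM in Cort (-0.66 ± 0.12, adjusted p = 7.8e-04), lower. All 5 genes were called whichever library was left out.

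Of 13 tested acute phase proteins, best known from the liver, 5 rose, none fell and 8 were not called (38.5% called, all genes 7.98%). The median was 0.55. Besides Hp, Serpina3n was 294, 258, 322 and 337 CPM in the Veh libraries and 706, 686, 759 and 636 CPM in the Cort libraries (1.201 ± 0.12, adjusted p = 2.2e-07), and the groups stood apart by 2.30-fold. Orm3, an orosomucoid carrier of small molecules, was at 32.01 to 52.3 CPM in Veh and 70.3 to 90.5 CPM in Cort (0.85 ± 0.18, adjusted p = 0.0024). Serpina3m was at 3.87 to 8.60 CPM in Veh and 31.4 to 52.5 CPM in Cort (2.80 ± 0.29, adjusted p = 1.1e-06) and overlaps its close relative Serpina3k, so its reads are uncertain. Saa3, serum amyloid A of fat and macrophages, was not called (log2 fold change -0.74 ± 0.72, adjusted p = 0.65). The defining hepatocyte marker Alb was at 47.1 to 68.4 CPM in Veh and 51.6 to 72.7 CPM in Cort, with overlap, and Ttr was at or under 1.23 CPM in every library. Of NRF2 targets and antioxidant enzymes 5 rose and 2 fell of 25, led by Prdx6 and by Gsta3, a glutathione transferase (170.4 to 202 CPM in Veh and 495 to 629 CPM in Cort, 1.66 ± 0.27, adjusted p = 0.0012). That count of 7 (28% called) was 3 without Veh replicate 2.

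Antigen presentation was the group with the largest share of changed members of the 44 lists examined, counting lists with more than 2 tested genes. Of 11 tested genes of MHC class II presentation 9 fell and none rose, with a median log2 fold change of -2.996, beside 7.98% called over all genes. Beyond the chains given above, the peptide editors fell: H2-DMb1 was 31.4, 24.9, 20.4 and 24.7 CPM in the Veh libraries and 6.11, 3.998, 4.26 and 4.01 CPM in the Cort libraries (-2.46 ± 0.26, adjusted p = 4.1e-07), and H2-DMa was at 33.5 to 50.5 CPM in Veh and 4.22 to 7.21 CPM in Cort (-2.996 ± 0.33, adjusted p = 4.0e-06). H2-DMa overlaps Brd2 on the other strand, which had 15165 counts against its 2701. Ciita, the transactivator that switches on the class II genes, was at 0.620 to 5.96 CPM in Veh and 0 to 0.291 CPM in Cort (adjusted p = 0.0068). It overlaps Dexi on the other strand, which had 1446 counts against its 216. The lysosomal thiol reductase Ifi30, which unfolds antigens, fell less (43.1 to 48.2 CPM in Veh and 28.4 to 36.5 CPM in Cort, -0.57 ± 0.14, adjusted p = 0.011). The groups of all 9 called genes did not overlap. Summed over the lists, macrophage markers were at 2950 to 3680 CPM in Veh and 1855 to 2316 CPM in Cort, without overlap. Most of that difference was Retnla, the most abundant of them. Without it the ranges overlapped, at 1872 to 2236 CPM in Veh and 1669 to 2107 CPM in Cort. Lymphocyte markers summed to 214 to 573 CPM in Veh and 170 to 365 CPM in Cort, with overlap. Without Ighm, the immunoglobulin M heavy chain and the most abundant of them, they were at 42.1 to 98.9 CPM in Veh and 13.1 to 23.8 CPM in Cort, without overlap. These sums without 1 gene were added after the values were seen. The part of these cells in the fall of the presentation genes was not tested.

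Of 19 tested genes of MHC class I presentation and the immunoproteasome 12 fell and none rose (63.2% called, all genes 7.98%). The median was -0.90. Psmb8, a catalytic subunit of the immunoproteasome, was 59.5, 48.5, 37.8 and 33.8 CPM in the Veh libraries and 12.6, 12.6, 8.12 and 16.5 CPM in the Cort libraries (-1.85 ± 0.21, adjusted p = 1.3e-06). Its companion Psmb9 was at 17.4 to 39.8 CPM in Veh and 4.89 to 10.3 CPM in Cort (-1.79 ± 0.26, adjusted p = 5.3e-05) and Tap1, which carries peptides into the endoplasmic reticulum, at 15.6 to 36.5 CPM in Veh and 9.62 to 13.4 CPM in Cort (-1.31 ± 0.22, adjusted p = 3.0e-04), although these last 2 genes overlap each other. The classical heavy chain H2-K1 was at 670.2 to 1168 CPM in Veh and 384 to 449.5 CPM in Cort (-1.18 ± 0.14, adjusted p = 3.3e-06), and B2m, the light chain of every class I molecule, at 4912 to 6856 CPM in Veh and 3294 to 3984 CPM in Cort (-0.61 ± 0.13, adjusted p = 0.0042). The 3 abundant class II chains H2-Aa, H2-Ab1 and H2-Eb1 fell by at least 20.2-fold, and H2-K1 and B2m by 2.27-fold and 1.52-fold.

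Of 34 interferon-stimulated genes 11 fell and none rose (32.4% called, all genes 7.98%), with a median of -1.06. Gbp7, a guanylate-binding GTPase of cell-autonomous defence, was 64.6, 58.8, 61.97 and 57.7 CPM in the Veh libraries and 24.5, 20.4, 24.3 and 27.2 CPM in the Cort libraries (-1.33 ± 0.17, adjusted p = 6.1e-06). The values were tight within groups and 2.52-fold apart. Its relatives Gbp2 (44.4 to 69.4 CPM in Veh and 22.2 to 29.8 CPM in Cort, -1.16 ± 0.17, adjusted p = 6.0e-05) and Gbp3 (10.6 to 16.7 CPM in Veh and 2.94 to 4.72 CPM in Cort, -1.68 ± 0.29, adjusted p = 3.3e-04) fell too, as did Irf9, a subunit of the factor that carries the type I interferon signal (27.2 to 38.5 CPM in Veh and 12.3 to 22.8 CPM in Cort, -1.11 ± 0.20, adjusted p = 5.6e-04). The immunity-related GTPase Iigp1 was at 29.9 to 69.5 CPM in Veh and 12.4 to 16.8 CPM in Cort (-1.87 ± 0.31, adjusted p = 0.0013).

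Upstream sequence was examined for these groups as well. An interferon-type element, GAAA repeated with any 2 bases between them, was in 364 of the 10934 windows of tested genes (3.33%), in 14 of 24 windows of the interferon list (58.3%), in 39 of 452 for genes called lower (8.63%) and in 11 of 475 for genes called higher (2.32%). The letters CTGATTGG, as in the Y box of class II genes, were in 642 windows (5.87%), and in 2 of 8 windows of the class II list, those of H2-Aa and H2-Eb1. The table gave no window for H2-Ab1. These motifs were chosen after the values of the genes were seen. The stretches shown are of the class II genes whose windows hold the Y box letters (in capitals), and of an interferon-stimulated and a class I gene that fell (interferon-type letters, or their complement, in capitals). They lie at chr17:34287824-34287923, minus strand (H2-Aa), chr17:34305759-34305858, plus strand (H2-Eb1), chr3:142530236-142530335, plus strand (Gbp7) and chr2:122147503-122147602, plus strand (B2m), each in the 250 bases before the RefSeq start.
H2-Aa: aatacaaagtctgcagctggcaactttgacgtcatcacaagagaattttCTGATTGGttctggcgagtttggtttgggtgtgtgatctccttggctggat
H2-Eb1: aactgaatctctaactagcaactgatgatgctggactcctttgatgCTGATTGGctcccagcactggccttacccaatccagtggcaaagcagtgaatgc
Gbp7: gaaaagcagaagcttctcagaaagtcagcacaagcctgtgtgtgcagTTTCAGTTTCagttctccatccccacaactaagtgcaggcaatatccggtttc
B2m: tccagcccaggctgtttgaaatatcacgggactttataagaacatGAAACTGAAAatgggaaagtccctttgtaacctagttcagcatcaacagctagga
The shares were not tested, and the interferon list is made of genes known to respond through such letters.

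Chemokines and cytokines had 8 lower and 2 higher genes of 33 (30.3% called, all genes 7.98%), with a median of -0.82. Ccl8, a monocyte chemoattractant of skin and fat macrophages, was at 10.1 to 19.2 CPM in Veh and 2.62 to 3.38 CPM in Cort (-2.38 ± 0.33, adjusted p = 2.3e-05). Ccl5, which draws T cells, was at 6.06 to 19.7 CPM in Veh and 0.473 to 2.31 CPM in Cort (-3.34 ± 0.47, adjusted p = 3.0e-05), and Cxcl12, the stromal ligand of CXCR4, at 47.9 to 82.5 CPM in Veh and 27.8 to 39.8 CPM in Cort (-0.89 ± 0.20, adjusted p = 0.006). Ccr2, the receptor that brings monocytes into fat, was 52.3, 39.8, 73.5 and 70.5 CPM in the Veh libraries and 13.2, 12.6, 10.96 and 20.03 CPM in the Cort libraries (-2.06 ± 0.29, adjusted p = 2.0e-04), with all Cort libraries below all Veh libraries. Tgfb3, a growth factor, was the higher member that stayed called whichever library was left out (20.1 to 26.1 CPM in Veh and 31.1 to 45.7 CPM in Cort, 0.79 ± 0.18, adjusted p = 0.0058). Of 28 tested genes of the Toll-like receptor and NF-kB pathway none was called by edgeR (4 at an unadjusted p under 0.05). The count was 2 with library totals alone or DESeq2, 1 with voom quality weights, no filter, the NPD groups alone or without Veh replicates 3 or 4, and 0 with limma voom.

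Markers of immune cells did not all fall. Of 30 macrophage markers 9 fell and 1, Chil3, rose (33.3% called, all genes 7.98%), and the median was -0.10. The pan-macrophage markers were unevenly placed: Adgre1 (F4/80) was at 35.4 to 47.8 CPM in Veh and 23.6 to 32.9 CPM in Cort (-0.64 ± 0.17, adjusted p = 0.014), a call lost without Cort replicate 3 (adjusted p = 0.062), while Csf1r (-0.38 ± 0.13, adjusted p = 0.072), Cd68 (0.39 ± 0.18, 0.22), Lyz2 (-0.011 ± 0.13, 0.98) and C1qa (0.049 ± 0.13, 0.9) were not called. The lectins of resident macrophages Mrc1 (92.02 to 124 CPM in Veh and 56.3 to 79.2 CPM in Cort, -0.65 ± 0.14, adjusted p = 0.0044) and Mgl2 (82.8 to 105 CPM in Veh and 42.1 to 51.4 CPM in Cort, -1.02 ± 0.14, adjusted p = 2.5e-05) were lower. Other called members fell further, with log2 fold changes of -2.91 for Retnla, -2.68 for Itgax and -2.06 for Ccr2. Over the whole list the log2 fold change was positive for 11 members and negative for 19. The fall of H2-Aa, H2-Ab1 and H2-Eb1 was not tested against these markers.

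All 5 called members of 23 tested lymphocyte markers fell (21.7% called, all genes 7.98%), with a list median of -1.58. Among them Trbc2, a constant region of the T cell receptor, was at 4.06 to 6.67 CPM in Veh and 0.267 to 1.26 CPM in Cort (-2.75 ± 0.58, adjusted p = 0.0027), and Cd2, a T and NK cell adhesion molecule, at 5.91 to 8.34 CPM in Veh and 1.03 to 3.13 CPM in Cort (-1.93 ± 0.41, adjusted p = 0.0029). Ccr7, the lymph node homing receptor, was at 0.739 to 3.34 CPM in Veh and had no count in any Cort library, so that it was at least 8.80-fold lower, taking 3 counts per library as the floor. Of 14 dendritic cell, granulocyte and mast cell markers 3 fell (21.4% called). Among them Xcr1, of cross-presenting dendritic cells, was at 1.17 to 2.08 CPM in Veh and without a count in Cort, at least 6.90-fold lower. Ccr7 and Xcr1 thus passed the count filter only through other groups, so that their falls are a description. Most lymphocyte markers were near the limit of detection: Cd3d was at most 1.33 CPM, Cd3e at most 1.73 CPM and Cd79a at most 0.336 CPM in the 8 libraries. The count of 3 was 1 without Veh replicate 4 or Cort replicate 1.

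Of 26 tested genes of Fc receptors, NADPH oxidase and phagocytosis 12 fell and 1 rose (50% called), with a median of -0.74. Besides Ptprc, Coro1a, an actin regulator of leukocytes (12.3 to 24.6 CPM in Veh and 3.74 to 9.08 CPM in Cort, -1.78 ± 0.29, adjusted p = 2.0e-04), and Rac2, the haematopoietic Rac GTPase (18.05 to 26.8 CPM in Veh and 6.32 to 11.5 CPM in Cort, -1.37 ± 0.23, adjusted p = 2.6e-04), were lower, and the scavenger receptor Msr1 was the gene that rose (4.45 to 6.45 CPM in Veh and 9.74 to 21.9 CPM in Cort, 1.45 ± 0.34, adjusted p = 0.0075). That count of 13 was 8 without Cort replicate 2 and 7 without Cort replicate 3. Coro1a overlaps Bola2 on the other strand, which had 3649 counts against its 1440. Of the adhesion genes 40% were called and of the complement genes 50%, beside 7.98% of all genes. Of 15 adhesion genes 6 fell, among them Itga4, an integrin chain of leukocytes (10.5 to 16.8 CPM in Veh and 3.20 to 5.25 CPM in Cort, -1.74 ± 0.30, adjusted p = 3.2e-04), and Selplg, a selectin ligand (17.9 to 22.3 CPM in Veh and 5.03 to 10.96 CPM in Cort, -1.39 ± 0.25, adjusted p = 6.1e-04). Of 20 complement genes 10 fell and none rose, with a median of -0.53: C2 was at 91.9 to 213 CPM in Veh and 44.6 to 61.3 CPM in Cort (-1.53 ± 0.20, adjusted p = 3.7e-05), Cfb at 68.5 to 96.7 CPM in Veh and 34.6 to 43.2 CPM in Cort (-1.12 ± 0.14, adjusted p = 6.1e-06) and C4b at 157 to 181 CPM in Veh and 68.03 to 95.4 CPM in Cort (-1.07 ± 0.23, adjusted p = 0.006), proteases and a substrate of the complement cascade.

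Extracellular matrix genes changed in both directions, mostly downward among those called. Of 45 tested collagens, matrix proteins and matrix enzymes 17 fell, 4 rose and 24 were not called (46.7% called, all genes 7.98%). The median was -0.69. Col1a2, a chain of fibrillar collagen I, was 674, 587, 979 and 803 CPM in the Veh libraries and 285, 264, 256 and 355 CPM in the Cort libraries (-1.39 ± 0.22, adjusted p = 5.5e-04). All Cort libraries were under every Veh library. Mmp2, gelatinase A, was 26.6, 32.3, 39.1 and 25.9 CPM in the Veh libraries and 10.5, 6.03, 9.70 and 3.47 CPM in the Cort libraries (-2.05 ± 0.28, adjusted p = 1.9e-05). Col14a1, of fibril surfaces (46.8 to 85.8 CPM in Veh and 7.40 to 14.9 CPM in Cort, -2.61 ± 0.35, adjusted p = 2.7e-04), Fn1, fibronectin (254 to 394 CPM in Veh and 87.6 to 118 CPM in Cort, -1.66 ± 0.30, adjusted p = 0.0029), and Lum, the proteoglycan lumican (28.8 to 52.8 CPM in Veh and 8.68 to 15.7 CPM in Cort, -1.74 ± 0.22, adjusted p = 6.2e-06), were lower in every Cort library as well. The rising members were Lox and Timp4, given above, and 2 chains of basement membranes, Col4a2 (350.1 to 616 CPM in Veh and 673 to 827 CPM in Cort, 0.67 ± 0.15, adjusted p = 0.005) and Col18a1 (55.7 to 92.5 CPM in Veh and 103 to 113 CPM in Cort, 0.55 ± 0.15, adjusted p = 0.02). Col4a2 overlaps Col4a1, which had more counts, and Col18a1 was called in 4 of the 8 fits that left out a library.

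Some stromal and vascular markers fell. Of the progenitor and stromal markers 27.8% were called and of the endothelial markers 28.6%, beside 7.98% of all genes. Of 18 progenitor and stromal markers 4 fell and 1 rose, with a median of -0.63: Pi16, of fibroblastic progenitors, was at 9.98 to 16.7 CPM in Veh and 2.85 to 5.76 CPM in Cort (-1.63 ± 0.34, adjusted p = 0.0023) and Thy1, a surface marker of fibroblasts, at 16.01 to 26.7 CPM in Veh and 5.05 to 7.48 CPM in Cort (-1.76 ± 0.28, adjusted p = 1.2e-04), while Dpep1, a dipeptidase, rose (55.9 to 80.6 CPM in Veh and 116 to 164 CPM in Cort, 1.003 ± 0.17, adjusted p = 3.7e-04). Pdgfra and Pdgfrb, receptors that mark stromal cells and pericytes, were at 25.3 to 52.7 against 20.2 to 28.6 CPM and at 18.7 to 25.6 against 11.7 to 22.1 CPM, with overlap. Of 21 endothelial markers 6 fell and none rose, led by Aplnr and Tek, the angiopoietin receptor (13.6 to 22.99 CPM in Veh and 6.18 to 10.6 CPM in Cort, -1.11 ± 0.24, adjusted p = 0.0035). That count was 3 without Cort replicate 1, 3 or 4, and the endothelial marker Pecam1 was at 112 to 205 CPM in Veh and 114 to 125 CPM in Cort. None of 13 mesothelial markers was called by edgeR (1 at an unadjusted p under 0.05) or by DESeq2.

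Of 33 tested cell cycle genes 4 fell, none rose and 29 were not called (12.1% called against 7.98% of all genes), with a median of -0.83. Top2a, the topoisomerase of dividing cells, was 15.3, 13.8, 33.3 and 13.6 CPM in the Veh libraries and 5.77, 2.04, 2.68 and 6.59 CPM in the Cort libraries (-2.15 ± 0.47, adjusted p = 0.0058), and Cdk1, the mitotic kinase, was at 2.66 to 12.97 CPM in Veh and 0.291 to 1.25 CPM in Cort (-3.04 ± 0.59, adjusted p = 0.0011). Veh replicate 3 stood far above the other Veh libraries for Top2a. The same library was the highest for Prc1, a protein of the spindle midzone (5.003, 3.05, 14.4 and 4.48 CPM in the Veh libraries and 0.475, 0, 0.868 and 0.712 CPM in the Cort libraries; adjusted p = 0.0049), and for Cenpf, a kinetochore protein (2.41, 0.670, 12.8 and 5.24 CPM in the Veh libraries and 0.340, 0.291, 0.316 and 0.0890 CPM in the Cort libraries; adjusted p = 0.013). The count of 4 was 2 without Veh replicate 3 and 9 with DESeq2, and Cenpf lost its call without Veh replicate 3 (adjusted p = 0.073) or Cort replicate 4 (adjusted p = 0.054).

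**Figure D3:**
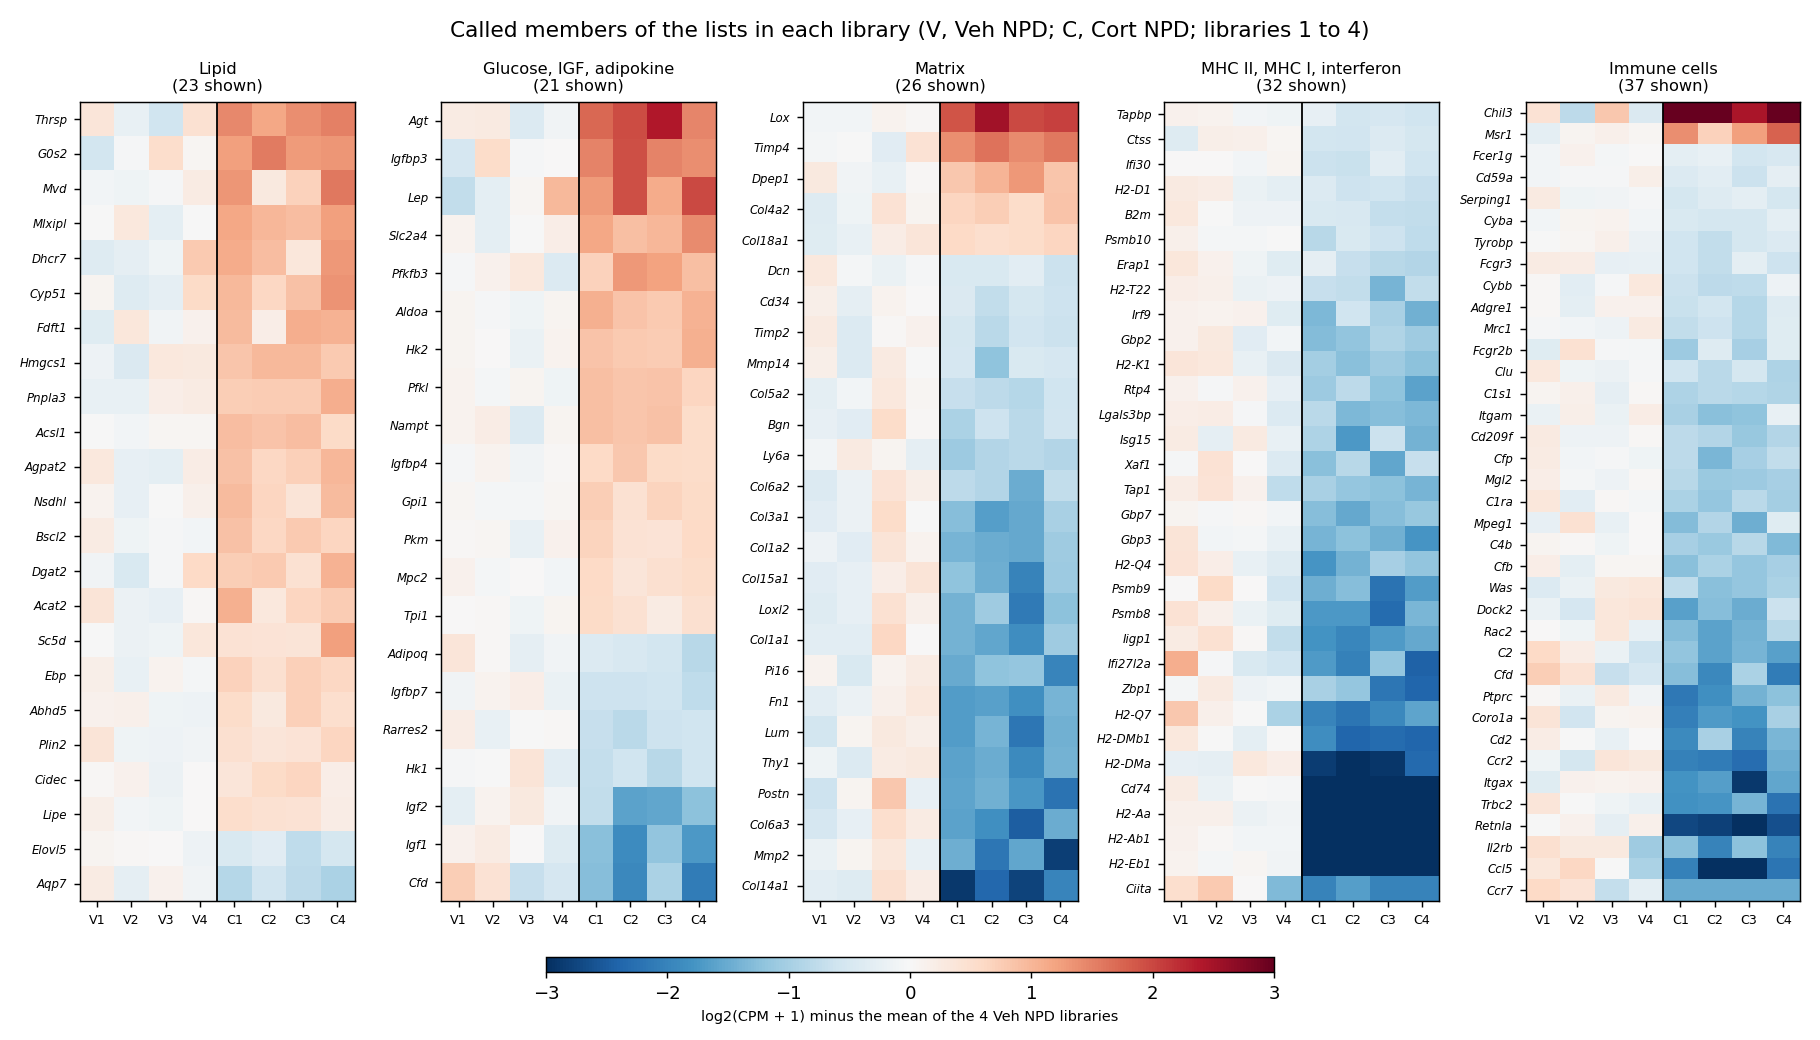
Each row is a gene called in eWAT on the NPD and each column a library (V1 to V4, Veh NPD; C1 to C4, Cort NPD), coloured by log2(CPM + 1) minus the mean of the Veh libraries, with colours limited at 3 either way. The lipid and glucose panels are mostly red in all 4 Cort libraries, and the matrix and immune panels mostly blue, deepest for H2-Aa, H2-Ab1, H2-Eb1 and Cd74.

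**Figure D4:**
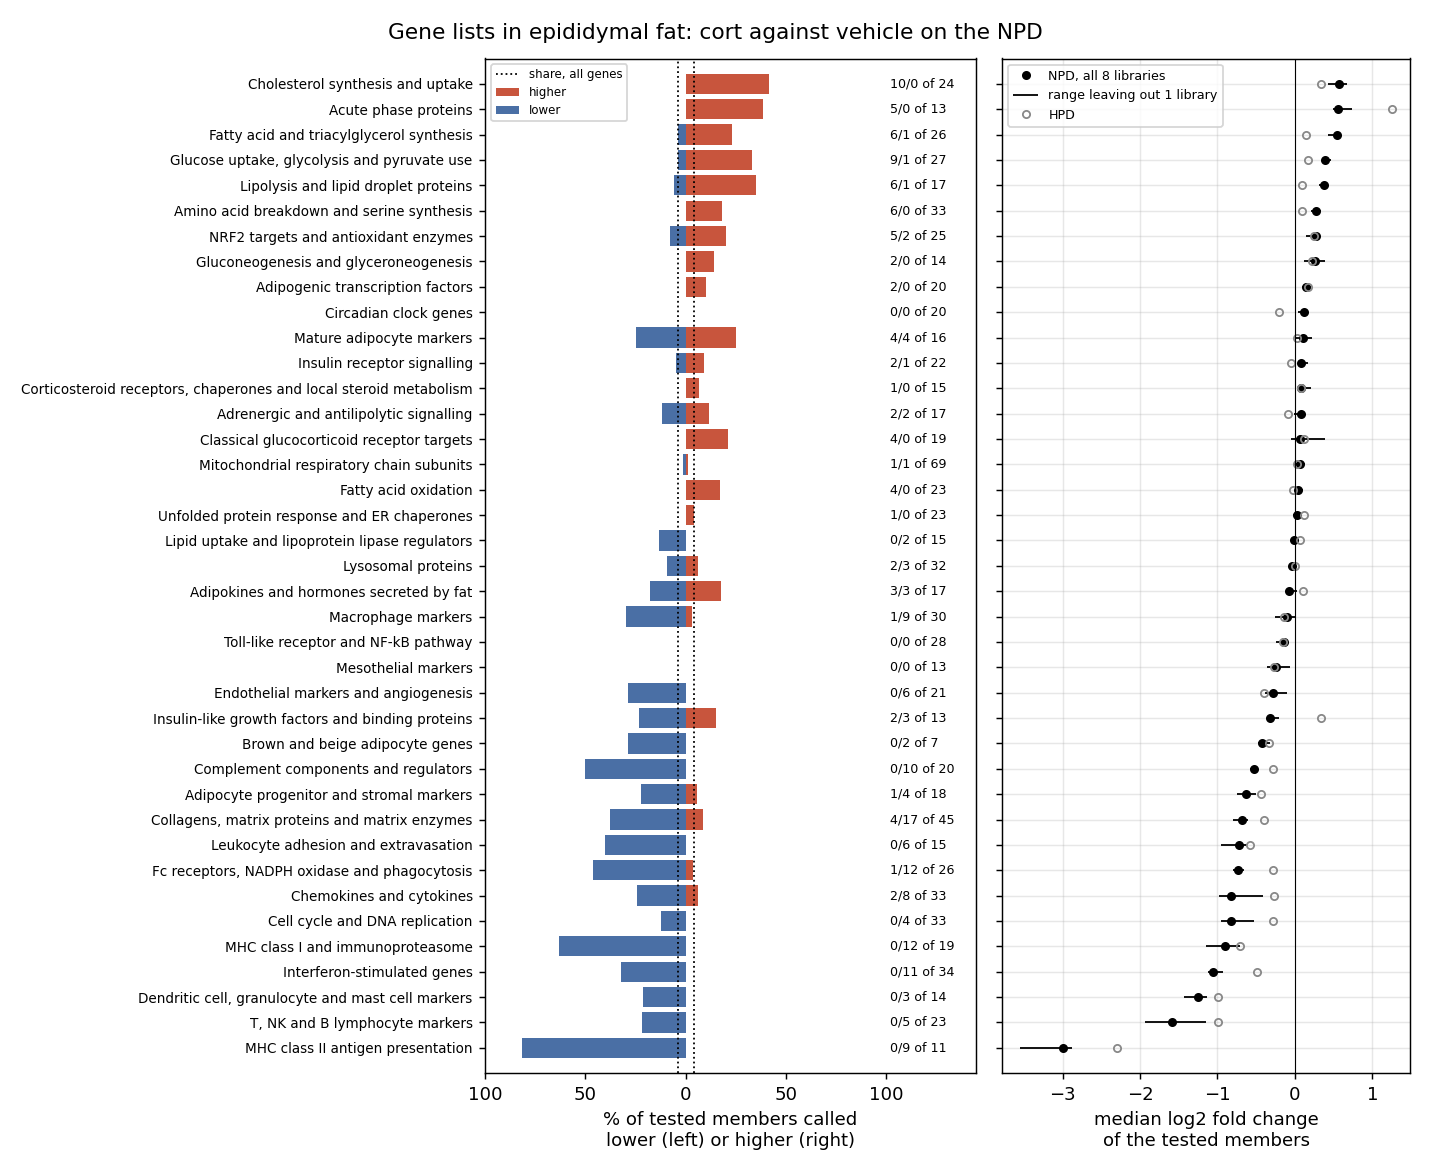
The left panel shows for each of 39 gene lists the percentage of tested members called higher (red) or lower (blue), with the counts at the right and dotted lines at the shares over all genes (4.05% and 3.93%). The right panel shows the median log2 fold change of the tested members on the NPD with its range when 1 library is left out, and on the HPD (open), from 0.57 for cholesterol genes to -2.996 for class II genes on the NPD.

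Markers of the mature adipocyte changed in both directions, 4 higher and 4 lower of 16 (50% called), with a median of 0.10. The most abundant of them, Car3, a carbonic anhydrase, was at 21997 to 25682 CPM in Veh and 12607 to 17929.9 CPM in Cort (-0.67 ± 0.12, adjusted p = 6.2e-04). Fabp4 (0.066 ± 0.13, adjusted p = 0.84) and Plin1 (0.028 ± 0.12, 0.94) were not called. The count of 8 was 5 without Veh replicate 1, Veh replicate 3 or Cort replicate 2. Among 20 adipogenic transcription factors 2 were called, a share (10%) near the 7.98% of all genes: Cebpa (321 to 408 CPM in Veh and 472 to 538 CPM in Cort, 0.55 ± 0.14, adjusted p = 0.013) and Zfp423, a factor of committed preadipocytes (32.4 to 34.9 CPM in Veh and 50.6 to 73.6 CPM in Cort, 0.80 ± 0.14, adjusted p = 5.4e-04). Pparg, the master regulator, had a log2 fold change of 0.36 ± 0.37 (adjusted p = 0.67).

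The response to cort on the HPD, whose whey protein gave 60% of the energy, was taken from the other 8 eWAT libraries to see where the NPD response differed. The 2 comparisons share no library, but both came from the same fit, with the same filter and a shared estimate of the spread. Calls on both diets are therefore not independent. On the HPD 6.09% of genes were called, and of the 1212 genes called on the NPD, 306 of the 615 higher and 237 of the 597 lower were called there. The direction was the same for 602 and 571 of them. Of the 33 genes plotted first, chosen on the NPD values, all had the same direction on the HPD and 29 were called. A call on 1 diet and not on the other does not show a difference, which the interaction of diet and cort tested. It was called for 2 of 15187 genes (0.0132%), and both were among the genes called on the NPD. At an unadjusted p under 0.05 there were 784 genes, 219 of them among the 1212.

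Syn2 rose by less on the HPD, where the 4 Veh libraries were at 15.3, 20.7, 13.4 and 16.7 CPM and the 4 Cort libraries at 38.00, 32.96, 35.4 and 31.2 CPM (1.06 ± 0.16, adjusted p = 9.2e-05; interaction -1.28 ± 0.22, adjusted p = 0.033). H2-Ab1 fell by less there, from 268, 269, 367 and 178 CPM in Veh to 31.8, 30.2, 39.4 and 37.6 CPM in Cort (-2.96 ± 0.17, adjusted p = 4.5e-12; interaction 1.40 ± 0.23, adjusted p = 0.024). The Cort libraries of H2-Ab1 were all higher on the HPD than on the NPD. Without Cort HPD replicate 4 none of the genes called on the NPD had a called interaction. In that library the 17 epididymis and testis genes summed to 13612 CPM, against at most 13.1 CPM in the other 15 eWAT libraries. None was called either without Veh NPD replicate 1 or Cort NPD replicate 1, 3 or 4. The red blood cell genes summed to 12719 to 25919 CPM in Cort HPD and 5267 to 9292 CPM in Veh HPD, and their part in the result was not tested. The class II genes as a list had a median of -2.30 on the HPD beside -2.996 on the NPD, and the interferon-stimulated genes -0.49 beside -1.06, differences that were not tested for the lists. Of single genes, the interaction was 1.28 ± 0.29, adjusted p = 0.4 for H2-Aa, 1.05 ± 0.28, adjusted p = 0.59 for Ptprc and -1.14 ± 0.54, adjusted p = 0.95 for Fkbp5, none of them called.

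**Figure D5:**
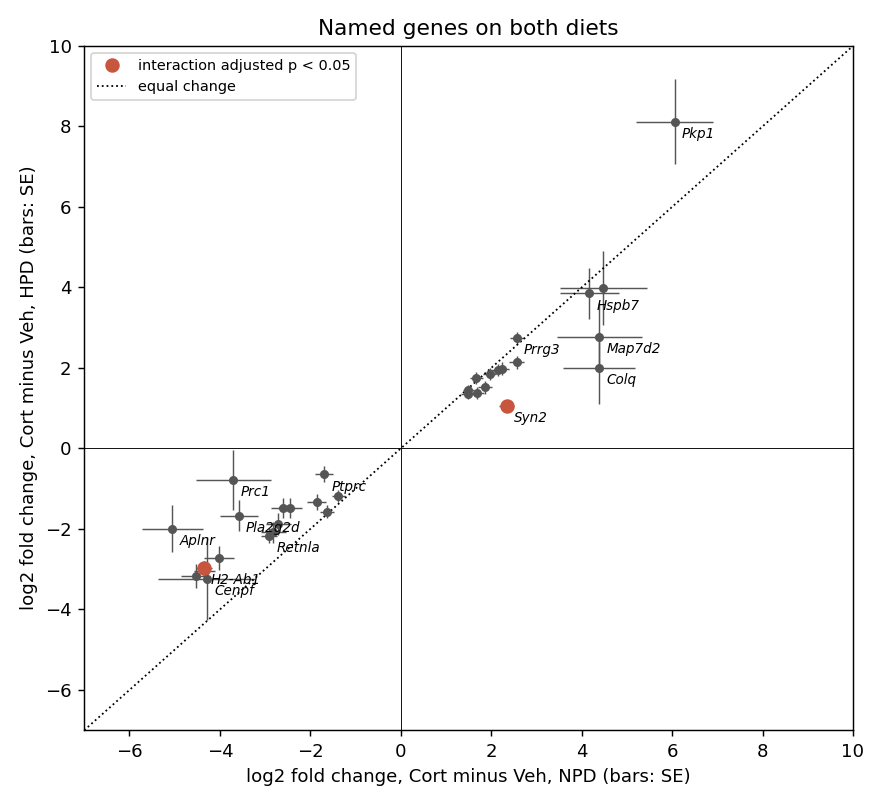
Log2 fold change of cort against vehicle on the NPD (x axis) and on the HPD (y axis) for the same 33 genes, with SE bars and a dotted line of equal change. All 33 points lie in the quadrants of shared direction, and the 2 red points, Syn2 and H2-Ab1, had a called interaction.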

How the data were processed

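Epididymal fat and liver of male mice were measured in 32 QuantSeq libraries, and the 8 eWAT libraries on the NPD are compared here. The deposited values are whole-number read counts for each Ensembl ID, not normalized by the authors. The submitters' processing notes name GRCm38/mm10, R 4.0.3 and limma. The aligner, the counting program and its use of strand are not given in the sources used here. Groups came from the sample labels.

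All 16 eWAT libraries were fitted as 4 groups in R 4.3.3 with edgeR 4.0.16 (filterByExpr with minimum count 10 and minimum total 15, TMM factors, robust quasi-likelihood test), and the contrasts were cort against vehicle on each diet and their interaction. Genes with a Benjamini-Hochberg adjusted p under 0.05 were called. An SE is the absolute log2 fold change over the square root of F. CPM used TMM-scaled library sizes, and sums of marker lists did too. Symbols came from GENCODE for 47224 of 47643 IDs.

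The 44 gene lists were written from general knowledge, and 959 of 960 genes matched. The members and lists were chosen with earlier results of these data known, and lists were described by counts and medians without a test. Named genes were the 12 per direction with the smallest p among called genes with non-overlapping groups, the next 5 per direction by size with a mean of at least 5 CPM in the higher group, members of a list where it is described (small p first, with preference for calls kept whichever library was left out, and well-known members that were not called), Nr3c1 and Fkbp5, and genes with a called interaction. Folh1, Map3k6 and Adamts16 were named after their values were seen. Items withheld from this text are not reported here, although they count in the totals. Promoter windows were taken from RefSeq (GRCm38.p6), and stretches that overlap an annotated exon were not printed.

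Depth (11690560 to 16468871 counts on the NPD) limits genes near 0, while the spread between libraries sets the precision of the rest. Chi-squared per gene was 20.2 to 41.3 over the 12 pairs of replicates, and none was identical. The steps were tested on simulated data. Alternatives were RLE factors, library totals, DESeq2 1.42.0, limma 3.58.1 voom with and without quality weights (statmod 1.5.0), no filter, the NPD groups alone, without Cort HPD replicate 4, the replicate number as a block, and each NPD library left out.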

Additional observations from a re-analysis of the deposited data

Results flagged for a closer look

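In 116 groups of 4 libraries, 2 for each of 58 genes whose levels were examined one by one, 10 held a library whose gap to the nearest other library passed Dixon's limit. Chance flags about 1 group in 20 where values are normal, which those near 0 (Pkp1, Map7d2) are not. The genes were chosen from these same data, so the rates are not compared. In the Veh NPD group replicate 3 was the high library for Ltbp4 (157 CPM, others 107 to 112), Map7d2 (1.55 CPM, others at most 0.185), Prdm16 (12.3 CPM, others 6.18 to 6.96) and Top2a (33.3 CPM, others 13.6 to 15.3), and the low library for Dctn3 (138 CPM, others 173 to 179). Veh replicate 4 was high for Hspb7 (24.5 CPM, others 4.39 to 5.85) and Pkp1 (0.551 CPM, others at 0), and low for Pla2g2d (13.3 CPM, others 20.1 to 21.0). Veh replicate 2 was low for Tmem176a (35.7 CPM, others 44.0 to 44.6). In the Cort NPD group replicate 1 was high for H2-DMb1 (6.11 CPM, others 3.998 to 4.26). All 10 genes were called on the NPD whichever library was left out.

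The interaction of diet and cort was called in the main edgeR fit for 2 genes. For Syn2 the log2 fold change was lower by 1.28 on the HPD (interaction -1.28). For H2-Ab1 the interaction was 1.40, a smaller fall on the HPD. None of the genes called on the NPD had a called interaction with library totals alone, limma voom or without Cort HPD replicate 4. Syn2 also overlaps the more abundant Timp4, so its reads are uncertain.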

How the results depend on the processing

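The number of genes called for cort on the NPD was 1212 in the edgeR fit and 1144 to 1550 under the 9 alternatives that kept all NPD libraries. It was 872 to 1038 when 1 library was left out (454 to 514 higher, 415 to 524 lower). The lowest count came without Veh replicate 3. The count was 1357 without Cort HPD replicate 4 and 1511 with the NPD groups alone. The split was 435 higher and 769 lower with library totals alone, 639 and 521 with limma voom and 732 and 803 with DESeq2. The number of called genes with a called interaction, 2, was 0 with library totals alone, limma voom, voom with quality weights or without Cort HPD replicate 4, was 9 with DESeq2, and ranged from 0 to 5 when 1 NPD library was left out. It cannot be fitted with the NPD groups alone. The causes were not tested. Over 238 genes and all alternatives there were 4043 values, of which 3622 kept direction and call, 421 kept direction only and 0 turned. Library totals alone ended 15 calls, all of them rises, among them Dgat2, Pnpla3, Lipe, Cidec and Col18a1, and limma voom ended that of Cenpf (adjusted p = 0.23). The fit of the NPD groups alone ended the call of Lep (adjusted p = 0.088). Whether replicate numbers pair the libraries was not settled. Deviations of same-numbered Veh and Cort libraries correlated at 0.052, 0.25, 0.044 and 0.048, all positive, and those of different numbers at -0.109 to 0.071. Only the libraries numbered 2 correlated best with their own number in both directions. With the replicate block 1207 genes were called (619 higher, 588 lower) and the interaction 3. Depth limits genes at or near 0, such as Xcr1 and Ccr7, to bounds.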

Other observations

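Of 69 tested subunits of the mitochondrial respiratory chain 1 rose and 1 fell, 2.90% against 7.98% of all genes, with a median log2 fold change of 0.061 that was -0.026 with library totals alone. Of 23 genes of the unfolded protein response 1 rose (4.35% called). It was Atf6, a sensor of the endoplasmic reticulum (22.3 to 31.3 CPM in Veh and 35.2 to 50.04 CPM in Cort, 0.74 ± 0.17, adjusted p = 0.0043). The chaperone Hspa5 was not called (-0.0021 ± 0.13, adjusted p = 1). None of 20 clock genes was called by edgeR (3 at an unadjusted p under 0.05) and 1 by DESeq2, and up to 2 were called in the other fits. Of 32 lysosomal genes 2 rose and 3 fell (15.6% called): the protease Ctsd was at 1061 to 1211 CPM in Veh and 1445 to 1890.4 CPM in Cort (0.58 ± 0.11, adjusted p = 9.7e-04), and Laptm5, a lysosomal membrane protein of leukocytes, at 64.9 to 83.2 CPM in Veh and 32.7 to 49.95 CPM in Cort (-0.88 ± 0.16, adjusted p = 5.6e-04). That count of 5 was 2 without Veh replicate 2, Veh replicate 3 or Cort replicate 1 and 3 without Cort replicates 2 or 3.

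Of 14 genes of gluconeogenesis and glycerol production 2 rose (14.3% called against 7.98% of all genes). That count was 0 without Veh replicate 3, Veh replicate 4 or Cort replicate 1. Of 15 genes of lipid uptake 2 fell (13.3% called), and 1 without Veh replicate 1, Veh replicate 2, Cort replicate 1 or Cort replicate 4. Gpihbp1, which holds lipoprotein lipase on capillary walls, was at 148 to 213 CPM in Veh and 96.6 to 128 CPM in Cort (-0.59 ± 0.14, adjusted p = 0.007), while the lipase Lpl was not called (-0.24 ± 0.12, adjusted p = 0.24). Cela1, an elastase of the pancreas list, rose from low levels (5.51 to 12.9 CPM in Veh and 16.2 to 22.5 CPM in Cort, 1.05 ± 0.26, adjusted p = 0.011), with the pancreatic marker Pnlip at or under 0.0617 CPM in all 8 libraries. Among the called genes 17 had no count in any Cort library, and the largest bound was that of Adamts16, a secreted metalloprotease, at least 10.3-fold lower. These 17 passed the count filter only through other groups, so that their falls are a description.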
